A study of Drosophila melanogaster with 32 samples.

Results

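The sites bound by the Motif 1 binding protein M1BP were set against those bound by the insulator cofactor CP190 in mock-treated Kc167 cells, a female cell line derived from Drosophila embryos. The data were 4 lists of ChIP-seq peaks, M1BP replicates 1 and 2 and CP190 replicates 1 and 2, which the labels place in the second of 2 mock sets, named mock2. They hold 23910 of the 113005 peaks in the series, whose 32 samples comprise 24 with a peak list and input libraries. The study asked where M1BP lies relative to CP190, Su(Hw) and Mod(mdg4), proteins of insulators, and whether the binding of one depends on another, by RNA interference against M1BP or Cp190. Overlapping peaks from any of the 4 lists, with 1 bp in common or more, were joined into a site. A shared site holds a peak in all 4 lists, an M1BP-alone site holds a peak in both M1BP lists and in neither CP190 list, and a CP190-alone site is the converse.

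The groups used for comparison were the first mock set (M1BP, CP190, Su(Hw) and Mod(mdg4), 2 lists each) and cells transfected with double-stranded RNA against Cp190 (M1BP and CP190, 2 lists each). The only treatment the labels give for either mock set is mock, and what the mock cells received is not given. All groups come from this 1 established line, and peak lists hold no expression by which its identity could be checked. Nothing says that the replicates came from separate cultures, so a p-value measures the spread between these libraries, which may be technical.

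M1BP is a zinc-finger protein that binds Motif 1, a core promoter element found mainly at constitutively active genes, where it is known for promoter-proximal pausing of RNA polymerase II. CP190 is a BTB-domain and zinc-finger protein that acts as a cofactor of several insulator proteins, among them Su(Hw), CTCF and BEAF-32. It is recruited through these DNA-binding partners and is found both at insulators within and between genes and at active promoters.

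The M1BP lists were much shorter than the CP190 lists, and most M1BP peaks lay over a CP190 peak. M1BP replicates 1 and 2 held 3844 and 3426 peaks, and CP190 replicates 1 and 2 held 8443 and 8197. A CP190 peak of either replicate overlapped 87.5% and 89.6% of the M1BP peaks. An M1BP peak of either replicate overlapped 40.8% and 41.0% of the CP190 peaks. In the first mock set, with 2980 and 2781 M1BP peaks and 7831 and 7796 CP190 peaks, these shares were 77.8% and 81.4% for M1BP and 30.4% and 30.5% for CP190. The second set was higher in both M1BP and both CP190 libraries, by 8.98 and 10.4 percentage points on average (n = 2 libraries per set). An exact two-sided permutation of libraries gave p = 0.33 for each, the smallest value that 2 against 2 libraries allow.

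The merge gave 9160 sites. Of these, 2746 (30.0%, 95% Wilson interval 29.0 to 30.9%) were shared, 300 (3.28%, 2.93 to 3.66%) held M1BP alone and 4513 (49.3%, 48.3 to 50.3%) held CP190 alone. The other 1601 held a peak in some other combination of lists and were left unclassed. Of the 3171 sites with M1BP in both lists, 86.6% (85.4 to 87.7%) were shared, 9.46% (8.49 to 10.5%) lacked CP190 in both lists, and 125 had CP190 in 1 list. Of the 7747 sites with CP190 in both lists, 35.4% (34.4 to 36.5%) were shared and 58.3% (57.2 to 59.4%) lacked M1BP. Intervals cover counting error only, and neighbouring sites are not independent.

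The share depended on how far down the CP190 lists were read. With each list kept to its 3426 strongest peaks, 35.4% of M1BP sites were shared and 1710 sites held M1BP alone. Leaving out M1BP replicate 2 raised the number of M1BP-alone sites from 300 to 480. The lists give no read depth, so a missing peak shows only that none was called at the authors' threshold.

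At shared sites the summits of both proteins lay close together. The median distance between the mean M1BP summit and the mean CP190 summit was 31 bp (quartiles 12.5 and 87 bp), and 77.5% of the 2746 distances were within 100 bp. Each of the 4 pairings of an M1BP with a CP190 library gave a median of 33 to 37 bp. Replicates of the same protein lay closer at the same sites, 18 bp apart for M1BP and 21 bp for CP190, with 92.3% and 92.5% within 100 bp. The distances between proteins thus exceeded those between replicates in each of the 4 library pairings. The first mock set gave 49.5 bp between proteins over 1964 shared sites, against 18 bp and 25 bp between replicates.

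**Figure D1:**
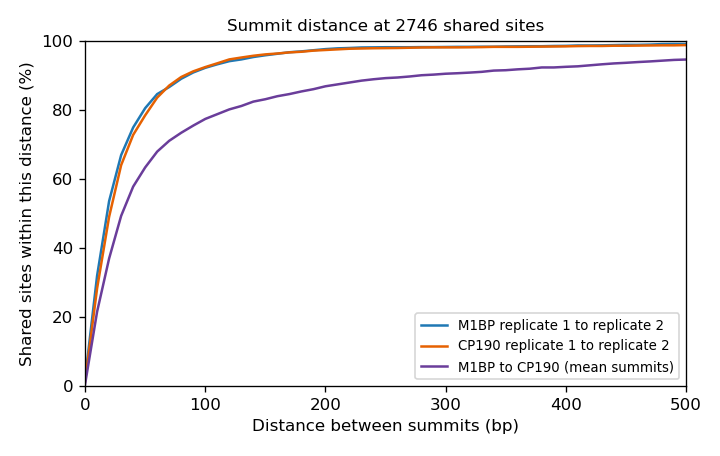
Distance between peak summits in bp at the 2746 shared sites of the second mock set, as the cumulative percent of sites for M1BP against CP190 and for replicates of each protein. The curves between proteins run below the replicate curves, with 77.5% against 92.3% and 92.5% of sites within 100 bp.

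Whether summits lay farther apart away from gene ends depended on how a site was placed. Elsewhere in the text a shared site stands at the mean of its 4 summits, which moves sites with distant summits away from gene ends. Placed so, 2356 shared sites within 250 bp of a gene end had a median distance of 29 bp and 388 others 64.25 bp. Placed by the M1BP summit alone, a choice made after seeing the data, the medians were 29.5 and 41.5 bp, and by the CP190 summit alone 29 and 64.25 bp. Where both summits were at a gene end (2299 sites) the median was 28.5 bp and 6.05% of distances exceeded 250 bp, and where neither was (281 sites) it was 28 bp and 12.5%. The 164 sites with only 1 summit at a gene end had a median of 418 bp. Sorting sites by both summits itself sorts them by distance, so no difference is read from these values. Only 26 shared sites had summits more than 1000 bp apart. More than 1 peak of a list fell into the same site at 70 to 94 of the shared sites, depending on the list. The median was 29.5 bp over the 2536 sites with 1 peak in each list.

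The side of the M1BP summit on which CP190 lay was not separable from replicate spread in the second set. At the 1232 shared sites at the end of a single gene, M1BP summits had a median position 22 bp outside the gene and CP190 summits 33 bp outside it. CP190 was farther out at 58.5% of these sites (55.8 to 61.2%), with a median shift of 7 bp outward. The 4 library pairings gave shifts of 3 to 13.5 bp outward, and replicates of 1 protein alone differed by 4 bp. In the first mock set the shift was 29 bp outward, CP190 was farther out at 71.2% of 913 sites (68.2 to 74.0%), and the replicate shifts were 0 and 1 bp. The gene table gives no strand, so a gene end here is either the start or the stop of transcription.

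The classes lay at different places relative to genes. On the chromosome arms lay 2744 of the shared, 296 of the M1BP-alone and 4504 of the CP190-alone sites, and only these were placed, shared sites by the mean of their 4 summits. Of the shared sites there, 85.9% (84.5 to 87.1%) were within 250 bp of a gene end, and 41.0% (39.1 to 42.8%) were at the ends of 2 or more genes. Of M1BP-alone sites 53.7% (48.0 to 59.3%) were at a gene end and 15.2% (11.6 to 19.7%) at the ends of 2 or more. Of CP190-alone sites 28.8% (27.5 to 30.2%) were at a gene end and 9.77% (8.94 to 10.7%) at the ends of 2 or more. CP190-alone sites lay mainly inside genes (45.7%) or between them (25.4%).

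**Figure D2:**
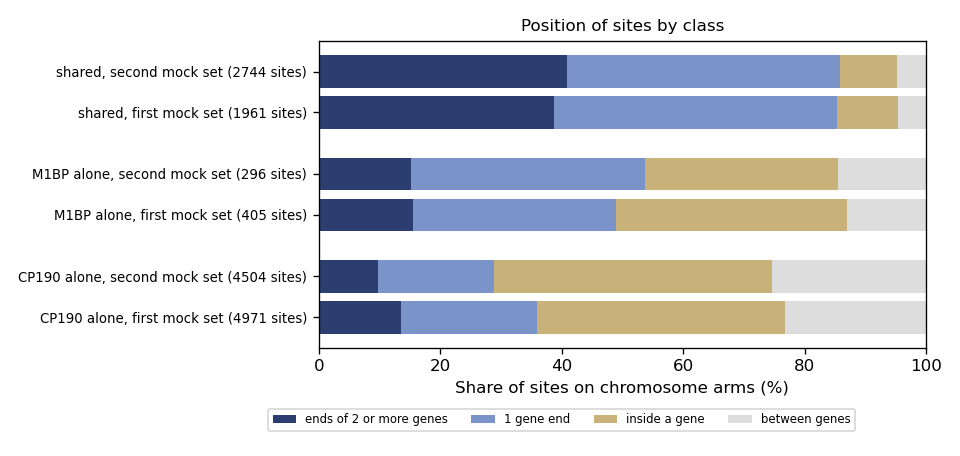
Percent of sites on chromosome arms by place relative to genes (1 gene end, ends of 2 or more genes, inside a gene, between genes). Stacked bars show shared, M1BP-alone and CP190-alone sites of the second and the first mock set. In the second set shared sites reach 85.9% at gene ends against 53.7% for M1BP alone and 28.8% for CP190 alone.

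The median distance from a site to the nearest gene end was 58 bp for shared sites, 145 bp for M1BP-alone sites and 1300 bp for CP190-alone sites. The order of the classes was the same in the first mock set, with 85.4%, 48.9% and 35.9% at gene ends. The M1BP-alone share rested on the length of the lists. With 3426 peaks in each list it was 81.5%, next to 81.8% for shared sites.

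Counted by library, 78.8% and 82.4% of M1BP peaks were at a gene end against 50.7% and 51.3% of CP190 peaks, which is 80.6 ± 2.53% against 51.0 ± 0.439% (SD, n = 2 each). The first mock set gave 74.1% and 78.3% for M1BP and 49.96% and 50.4% for CP190. No M1BP library fell as low as any CP190 library. The difference over both sets was 27.8 percentage points, with p = 0.056 in an exact two-sided permutation of labels within each mock set. That is the smallest p these 36 arrangements allow, so the design could not pass 0.05.

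Single-protein sites were defined by the lack of an overlapping peak of the other protein, so some distance was built in. The lowest was 486 bp for M1BP-alone and 491 bp for CP190-alone sites. Distances also depend on the length of the other protein's lists. No distance for randomly placed sites was computed, so the values are descriptions. M1BP-alone sites lay a median of 3686 bp from the nearest CP190 summit of either list, and 19 of 296 were within 1000 bp. CP190-alone sites lay a median of 18046 bp from the nearest M1BP summit, and 40 of 4504 were within 1000 bp.

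Peak strength was compared by the fold enrichment that the authors' peak caller gave each peak, used only to describe and rank peaks within a list. It is not scaled between libraries, so ranks run from the weakest peak of a list to the strongest at 100. Shared sites ranked above M1BP-alone sites in both M1BP lists, with medians of 62.9 against 42.4 in replicate 1 and 58.2 against 34.2 in replicate 2. The same was seen in the first mock set, by 34.3 and 35.8 rank points. In the CP190 lists shared and CP190-alone sites lay close, at 55.0 against 53.7 and 55.1 against 51.3. In the first mock set shared sites ranked 8.05 and 8.33 points below CP190-alone sites, so this small difference had opposite signs in the mock sets. It also changed sign in the second set under other peak definitions.

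**Figure D3:**
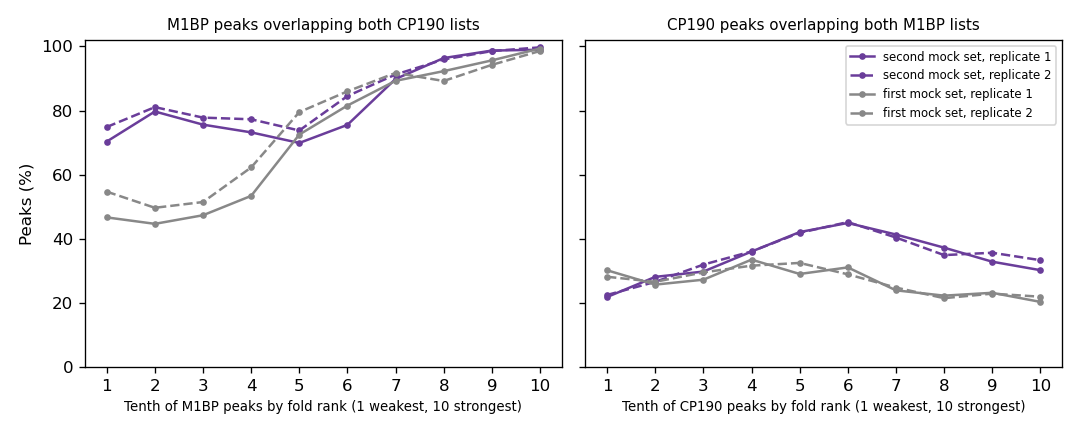
Percent of M1BP peaks (left) and CP190 peaks (right) that overlap both lists of the other protein, by decile of the fold rank within a list, for each replicate of both mock sets. In the second set M1BP runs from 70.3% and 74.9% in the weakest decile to 99.0% and 99.7% in the strongest, while CP190 is highest in decile 6, at 44.9% and 45.2%.

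Nearly every strong M1BP peak lay over CP190. In the strongest decile of M1BP replicates 1 and 2, 99.0% and 99.7% of peaks overlapped both CP190 lists. In the weakest decile the shares were 70.3% and 74.9%. The weak end differed between the mock sets, with 46.6% and 54.7% in the first. Strong CP190 peaks did not follow M1BP in this way: CP190 overlap with both M1BP lists was 21.8% and 22.4% in the weakest decile, 44.9% and 45.2% in decile 6 and 30.2% and 33.3% in the strongest. The first set ran from 30.1% and 28.1% in the weakest CP190 decile to 20.3% and 21.9% in the strongest.

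Within shared sites the ranks of the 2 proteins were only weakly correlated. Spearman's correlation of M1BP with CP190 ranks across the 2746 sites was 0.110 to 0.166 over the 4 library pairings, against 0.922 between M1BP replicates and 0.943 between CP190 replicates. The points share the sites and, within a replicate number, possibly the chromatin, and are not independent. Gene ends held most of the shared sites at every M1BP strength. From the weakest to the strongest quintile of M1BP rank, 83.1%, 77.8%, 85.1%, 92.1% and 89.2% of shared sites were at gene ends. The median summit distances in the same order were 34.75, 28.5, 38.75, 31 and 24.5 bp. Median CP190 ranks did not run evenly over these quintiles, at 52.4, 59.1, 40.6, 53.2 and 65.2.

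The strongest shared sites at gene ends included genes of varied function. The values below are folds in M1BP replicates 1 and 2 and then in CP190 replicates 1 and 2. Coordinates follow the chromosome names of the Release 6 assembly. The site at Cks30A (2L:9330266-9331260), which encodes a cyclin-dependent kinase subunit, had M1BP folds of 44.3 and 51.4 and CP190 folds of 30.6 and 31.7. Its M1BP folds were the highest of both M1BP lists. The site at Dhdds (X:7932857-7934016), a subunit of the enzyme that makes dolichol precursors, had 29.5 and 35.1 for M1BP and 35.0 and 37.9 for CP190. The site at cic (3R:20252115-20254915), the HMG-box repressor capicua, had 36.2 and 38.4 for M1BP and 25.0 and 29.0 for CP190. All 3 sites ranked above 90 in each of the 4 lists.

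The others chosen by the same rule were QIL1, a component of the mitochondrial cristae-organising complex (38.2 and 32.0 for M1BP, 32.9 and 24.7 for CP190), Hacd2, a fatty-acid elongation dehydratase (28.3 and 27.6, 40.9 and 37.2), and the site between zip, nonmuscle myosin heavy chain, and uzip (31.2 and 35.3, 26.8 and 33.3). CG11444 (35.1 and 37.7, 29.1 and 26.6) and CG9018 (29.2 and 39.1, 25.7 and 29.9) completed the 8. Their summits were between 8.5 bp (CG11444) and 328 bp (zip and uzip) apart.

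M1BP-alone sites had lower M1BP ranks than shared sites, as given above. The strongest were CG7668 (3L:20002235-20003380), with M1BP folds of 25.4 and 21.9, and the site at Lamtor5, a component of the Ragulator complex, and deltaCOP, a coatomer subunit, with 22.9 and 22.0. Next came apolpp, the lipid-carrier apolipophorin, on chromosome 4 (26.6 and 19.0). Paired sites followed at Sirt6, a deacylase, and pont, an AAA ATPase (15.1 and 29.1), at Dnz1 and aurB, the Aurora B kinase (18.3 and 24.5), and at nes and asRNA:CR45210 (20.0 and 21.2). Replicates 1 and 2 differed most at Sirt6 and pont. Away from gene ends the strongest were a site inside a gene, 6397 bp from the nearest end, that of mir-2279 (16.5 and 13.1) and one inside a gene 258 bp from an end of E(z), which encodes the Polycomb methyltransferase (9.44 and 16.7).

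Several CP190-alone sites were among the strongest CP190 peaks. At gene ends the first 6 by rank were CR31958 (46.8 and 48.7), asRNA:CR31912 (46.0 and 46.1), Atet, an ABC transporter (53.1 and 40.3), CG6465 (51.9 and 39.6), CG13698 (46.9 and 39.3) and mthl10, a G protein-coupled receptor (41.6 and 42.5). Away from gene ends, named by the nearest gene, the first 4 were CG43658 (54.9 and 50.9), Wnt4, a signalling ligand (53.0 and 55.0), CG15282 (57.7 and 47.4) and Wdr62 (60.7 and 47.0). All 10 of these peaks ranked at 99.0 or above in both lists.

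Shared sites at which 1 protein was strong and the other weak also occurred. The 4 sites with the largest M1BP lead in rank were each at the ends of 2 or more genes, led by CG5846 and CG4658 (M1BP 23.5 and 25.3, CP190 2.93 and 3.43). The largest CP190 lead was at InR, the insulin receptor (M1BP 2.10 and 2.15, CP190 29.8 and 29.6). Next were Tak1, a stress-signalling kinase (2.47 and 3.37, 24.7 and 29.7), CG9399 with Kap-alpha3, an importin (2.71 and 2.68, 21.7 and 24.9), and Lap1 (3.01 and 2.61, 22.9 and 20.7). Both replicates of each protein fell on the same side at all 8, which their choice by the largest rank difference made likely. Shared sites away from gene ends included, by nearest gene, cDIP (41.2 and 38.8, 32.1 and 26.3) and ATPsynD, an ATP synthase subunit, whose summits were 1682 bp apart.

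Gene lists were read as counts of genes with a site at an end, beside the same percent over all 17683 genes of the table. Over all genes, 3443 (19.5%) had a shared site, 208 (1.18%) an M1BP-alone site and 1740 (9.84%) a CP190-alone site. Over the 13921 protein-coding genes alone these shares were higher, at 23.7%, 1.36% and 11.2%. An excess of a list of protein-coding genes over all genes therefore holds in part this difference. In the first mock set the shares of all genes were 13.8%, 1.49% and 13.8%. A gene can count in more than 1 class, and many list genes share their site with the end of a neighbouring gene, so a site cannot always be assigned to the gene of the list. Among list genes with a shared site this was so for 36 of 59 cytoplasmic ribosomal protein, 23 of 39 respiratory chain, 15 of 19 proteasome, 10 of 14 Rab and 9 of 10 aminoacyl-tRNA synthetase genes. These counts are descriptions and carry no test.

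**Figure D4:**
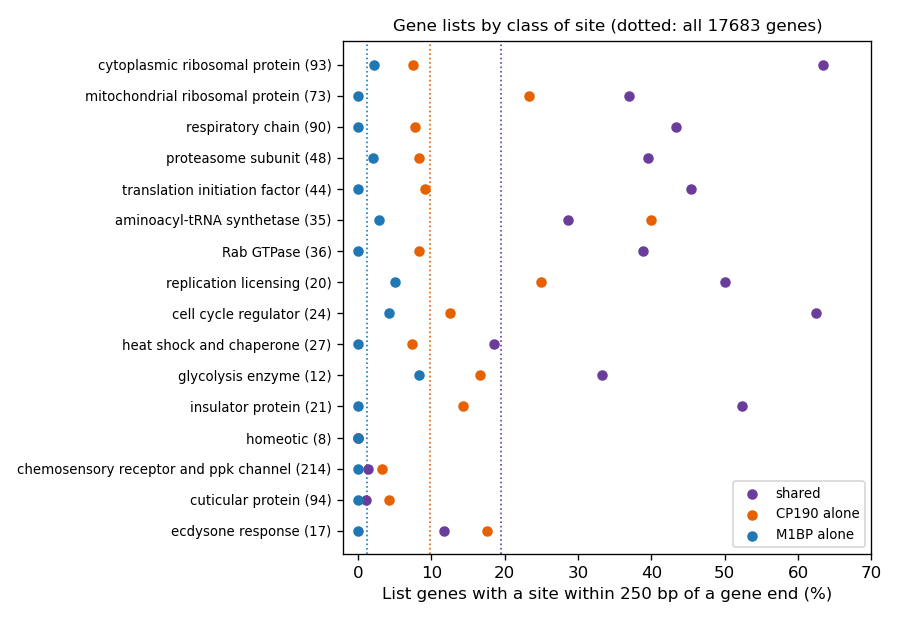
Percent of the genes of each list with a shared, CP190-alone or M1BP-alone site within 250 bp of a gene end; dotted lines show the same percent over all genes. Cytoplasmic ribosomal protein and cell cycle genes lie farthest to the right for shared sites, at 63.4% and 62.5%, and chemosensory, cuticular and homeotic genes at the left.

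The protein synthesis lists stood high for shared sites. Of 93 cytoplasmic ribosomal protein genes, 59 (63.4%) had a shared site, 7 a CP190-alone site and 2 an M1BP-alone site. Among the strongest were RpS15Aa (M1BP 28.7 and 29.9, CP190 27.6 and 27.95) and RpL37A (33.5 and 31.5, 27.5 and 23.3), which code for ribosomal subunit proteins. Of the 93, 46 had a shared site in the first mock set, all of them among the 59, against 13.8% of all genes. Of 44 translation initiation factor genes 20 (45.5%) were shared, including eIF4E1, the cap-binding protein (24.5 and 21.3, 23.9 and 16.2). In the first set 10 of them were, and 9 held CP190 alone.

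Mitochondrial gene lists were split. Of 90 respiratory chain genes 39 (43.3%) had a shared site and 7 a CP190-alone site. One of the 3 strongest, at ND-PDSW, a complex I subunit, and msl-2, had M1BP folds of 38.7 and 45.8 and CP190 folds of 11.6 and 12.7. The other 2 of these were ATPsynC (21.2 and 31.0, 22.0 and 27.7) and COX5B (22.9 and 21.9, 29.0 and 32.3), which encode subunits of ATP synthase and cytochrome c oxidase. Of 73 mitochondrial ribosomal protein genes 27 (37.0%) were shared and 17 (23.3%) held CP190 alone, with mRpL13 (25.6 and 18.2, 39.1 and 30.3) the strongest. The order of the classes turned in the first mock set, where 18 of the 73 were shared and 24 held CP190 alone. Of the 90 respiratory chain genes 28 were shared there and 19 held CP190 alone. No gene of either list had an M1BP-alone site in the second set.

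Aminoacyl-tRNA synthetase genes leaned to CP190 alone. Of 35 genes 14 had a CP190-alone site, 10 (28.6%) a shared one and 1 an M1BP-alone one. HisRS (CP190 27.8 and 27.5) and PheRS-m (18.3 and 20.1), which charge histidine and mitochondrial phenylalanine tRNAs, had CP190 alone. LysRS had both proteins (17.5 and 28.4, 16.1 and 24.8). In the first mock set 15 had CP190 alone and 8 were shared, against 13.8% of all genes for each class.

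Cell cycle, replication licensing, proteasome and Rab genes often had a shared site in the second set. It was found at 15 of 24 cell cycle regulators (62.5%), 10 of 20 replication licensing genes, 19 of 48 proteasome subunits (39.6%) and 14 of 36 Rab GTPases (38.9%). In the same order 3, 5, 4 and 3 genes had CP190 alone. In the first mock set 13, 8, 14 and 10 were shared and 4, 8, 8 and 10 had CP190 alone. The lead of shared sites was thus absent there for replication licensing and Rab genes. CycB, a mitotic cyclin, had 26.8 and 25.0 for M1BP and 27.3 and 20.8 for CP190. The Cdc25 phosphatase gene stg had CP190 alone, at 29.2 and 32.3. Cdc6, which loads the replicative helicase, also had CP190 alone (11.9 and 17.6). Its partner dup, the Cdt1 orthologue, was shared (18.8 and 21.6, 16.4 and 19.6), but with summits 574.5 bp apart. Of 12 glycolysis enzymes 4 were shared, 2 held CP190 alone and 1 M1BP alone. Of these Tpi, triose phosphate isomerase, leaned to CP190 (5.78 and 7.13, 28.3 and 33.3).

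Insulator protein genes held both proteins at 11 of 21 members and CP190 alone at 3. The gene su(Hw) had M1BP folds of 20.8 and 20.5 and CP190 folds of 25.5 and 25.8, with summits 710 bp apart. CTCF had CP190 alone (24.3 and 22.9), and Nup98-96, a nucleoporin gene, had both (31.4 and 38.7, 11.7 and 11.1). The Cp190 gene itself had a weak shared site (3R:15274762-15275693, M1BP 5.04 and 4.80, CP190 5.10 and 5.47). No classed site lay within 250 bp of an end of the M1BP gene.

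For shared sites the chemosensory and cuticular lists were below the 19.5% of all genes and the 23.7% of protein-coding genes. The heat shock list was near the first of these shares and below the second. The homeotic and ecdysone lists, with 8 and 17 genes, are too small to be set against either share. A shared site was found at 5 of 27 heat shock and chaperone genes (18.5%), among them the constitutive Hsc70-4 (27.5 and 27.8, 7.84 and 6.44). Of 214 chemosensory receptor and ppk channel genes 3 were shared and 7 held CP190 alone (3.27%). The cuticular protein genes gave 1 shared and 4 CP190-alone of 94, and none of the 8 homeotic genes had any classed site. The strongest sites of the chemosensory and cuticular lists held CP190 alone, among them Or43a, an odorant receptor (31.1 and 25.9), and Cpr62Ba (33.1 and 28.5). Of 17 ecdysone response genes 2 were shared and 3 (17.6%) held CP190 alone, including the nuclear receptor gene ftz-f1 (27.5 and 30.5). With 17 genes, this share is likewise not set against the 9.84% of all genes.

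Protein-coding genes made up 96.0% of the genes with a shared site, 91.3% of those with M1BP alone and 89.7% of those with CP190 alone, against 78.7% of the table. Small nuclear RNA and transfer RNA genes were singled out after the values were seen. Of 32 snRNA genes 11 (34.4%) had a CP190-alone site, against 9.84% of all genes, and none a shared one. Of 290 tRNA genes 25 (8.62%) had a CP190-alone site, near the 9.84% of all genes, and 2 had a shared one.

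Chromosome 4, the small and largely heterochromatic dot chromosome, had a larger share of M1BP-alone sites than each other arm and was also singled out after its values were seen. M1BP-alone sites were 13 of its 20 M1BP sites (65.0%, 43.3 to 81.9%), compared with 6.41% to 11.8% on the other arms. By library, 12 of 37 and 8 of 24 M1BP peaks on chromosome 4 overlapped a CP190 peak (32.4% and 33.3%), against 88.2% and 90.2% elsewhere. The first set gave 5 of 16 and 3 of 12 (31.3% and 25.0%), against 78.2% and 81.9%. The mean difference was -54.1 percentage points and had the same sign in all 4 libraries. Both M1BP libraries of a set were scored against the same CP190 lists. No p-value is read here, because the chromosome was picked on these values. Of the 13 M1BP-alone sites 10 were at gene ends. They included Rad23, a nucleotide excision repair factor (25.3 and 15.4), lgs, a Wnt pathway cofactor (18.5 and 13.5), and Arf4, a vesicle-coat GTPase (16.2 and 11.3). CP190 was not absent from the chromosome, since 21 sites held it alone. A shared site between genes, 1294 bp from an end of Sox102F, had CP190 folds of 60.1 and 59.8 with M1BP at 6.32 and 8.40. Another shared site nearest to Sox102F had CP190 at 6.38 and 4.46 with M1BP at 10.5 and 8.21.

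Both classes of CP190 site recurred in the first mock set, whereas their partners differed. A first-set CP190 peak in both lists lay at 93.4% of shared and 89.4% of CP190-alone sites. First-set M1BP peaks in both lists lay at 74.5% (72.9 to 76.1%) of shared sites, 63.0% (57.4 to 68.3%) of M1BP-alone sites and 0.665% of CP190-alone sites. Su(Hw), measured only in the first mock set among the mock-treated groups, was in both lists at 61.6% (60.2 to 63.0%) of CP190-alone sites and 4.19% (3.50 to 5.00%) of shared sites. Mod(mdg4) gave 51.2% and 4.33%. CP190-alone sites with both Su(Hw) and Mod(mdg4) numbered 2256, and 15.7% of them were at gene ends. The 1577 with neither were at gene ends in 53.9% of cases and ranked lower among CP190 sites (median 36.9 against 67.6).

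In cells treated with double-stranded RNA against Cp190, CP190 peaks at shared sites recurred more often than at CP190-alone sites of similar fold rank. The sites were themselves called from the mock2 lists, so the values are a description. CP190 was in both knockdown lists, which held 2031 and 2150 peaks, at 27.2% (25.6 to 28.9%) of shared sites and 19.3% (18.2 to 20.5%) of CP190-alone sites. CP190 sites were divided into quintiles of CP190 rank, each a run of equal numbers of ranked sites. In the strongest quintile it was 91.6% (88.9 to 93.7%) of 513 shared sites against 71.4% (68.4 to 74.2%) of 939 CP190-alone sites. In the next quintile it was 45.7% (41.6 to 49.8%) of 569 against 21.0% (18.4 to 23.8%) of 883, and in the 3 weaker quintiles at most 2.19%.

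Each knockdown library gave the same order. In the strongest quintile replicates 1 and 2 had 93.4% and 94.0% of shared sites against 74.6% and 77.85% of CP190-alone sites. In the next quintile the values were 54.5% and 57.1% against 25.8% and 32.4%. Median mock folds were close within a quintile, at 24.4 and 24.3 for shared and 25.4 and 23.9 for CP190-alone sites in the strongest. Sites were matched on fold only. Ranked by −log10 q, shared sites of all quintiles together lay 10.1 rank points above CP190-alone sites, and the part of this in the difference was not tested. Shared sites were wider than CP190-alone sites, with medians of 1232 and 1099 bp in the strongest quintile and 1055 and 880 bp in the next, and the part of width in the difference was not tested. Counting only knockdown summits within 100 bp of the mock CP190 summit, a choice made after seeing the data, gave 86.4% against 67.7% and 40.1% against 19.0%. CP190-alone sites with Su(Hw) in both lists gave 76.8% and 21.7% in these 2 quintiles, and those with Su(Hw) in neither gave 61.1% and 18.1%.

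**Figure D5:**
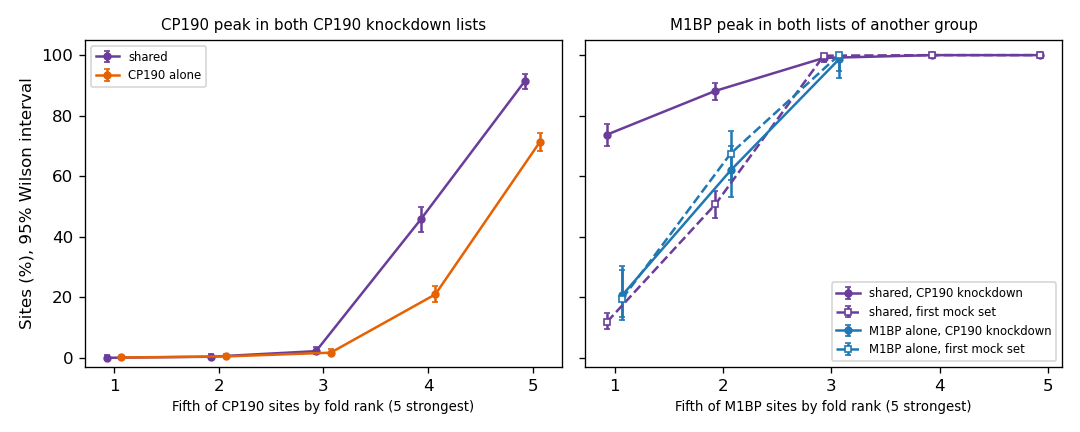
Left, percent of shared and CP190-alone sites with a CP190 peak in both CP190-knockdown lists, by quintile of CP190 rank. Right, percent of shared and M1BP-alone sites with an M1BP peak in both CP190-knockdown lists and in both lists of the first mock set, by quintile of M1BP rank; bars are 95% Wilson intervals. In the strongest CP190 quintile 91.6% of shared and 71.4% of CP190-alone sites had one.

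M1BP was found at most shared sites in the Cp190 knockdown cells too. The M1BP lists of those cells held 3626 and 3511 peaks, and 92.8% (91.7 to 93.7%) of shared sites and 60.7% (55.0 to 66.0%) of M1BP-alone sites had a peak in both. From the weakest to the strongest quintile of M1BP rank, 73.8%, 88.2%, 99.1%, 100% and 100% of shared sites did. Among M1BP-alone sites the weakest quintile gave 20.7% (13.5 to 30.3%) of 87 sites, the second 61.9% of 126 and the third 98.6% of 71.

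Weak shared M1BP sites were found less often in the first mock set than in the knockdown lists. In the weakest quintile, 11.9% (9.38 to 14.9%) of the 522 shared sites had M1BP in both first-set lists, against 73.8% in the knockdown lists. In the second quintile it was 50.7% against 88.2%. From quintile 3 upward all values for shared sites were above 99%. At M1BP-alone sites the first set gave 19.5% and 67.5% in the weakest 2 quintiles, close to the 20.7% and 61.9% of the knockdown lists. The first-set M1BP lists were also shorter, and the part of that difference in the recurrence was not tested.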

How the data were processed

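Peaks had been called by the authors in each library separately, as the peak names show. The submitters' processing notes name MACS2 2.2.5, the aligner Bowtie2 2.3.5, Picard 2.20.2 and SAMtools 1.9, with no order or setting. The deposited lists give the authors' fold enrichment of each peak (a ratio), its −log10 q (at least 1.30 in the lists used) and its summit. Read depth was not given in the sources used here, nor were control library and genome build. Chromosome names matched the Release 6 plus ISO1 MT gene table, from which 17683 genes on the arms took names and ends, without strand.

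Sites were merged, classed and ranked in Python 3.11.15 with numpy 2.4.6, pandas 2.3.3 and scipy 1.17.1, after tests on simulated data. A summit within 250 bp of a gene end counted as at that end. A site's summit in a list was that of its strongest peak. Named genes were the highest-ranked sites of each class at and away from gene ends, those with the largest rank difference between proteins, up to 3 members of each of 16 gene lists, and the M1BP and Cp190 genes. One gene that this rule names is not reported here. Members and lists were chosen with earlier results of these data known, and the cuticular list was trimmed of 1 cytochrome P450 reductase gene after its names were seen. Shares carry 95% Wilson intervals. Only libraries were permuted. Alternatives covered the merging rule, list length, q, window and left-out libraries. No genome sequence was used here, so the planned search for motif words was not run. The 8 lists of M1BP-depleted cells were not used.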

Additional observations from a re-analysis of the deposited data

How the results depend on the processing

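Each value below comes from 1 changed choice; a rank difference is the median rank of shared sites minus that of single-protein sites, and the cause of each change was not tested. Keeping peaks with −log10 q of 10 or more gave 82.5% of M1BP sites shared, a summit distance of 29 bp, rank differences of 26.5 (M1BP) and -2.95 (CP190), and 66.4% and 34.2% of M1BP-alone and CP190-alone sites at gene ends. Requiring 50% of each peak to overlap gave 618 M1BP-alone sites, 76.7% shared, 29 bp, rank differences of 25.1 and -0.258, and 87.9%, 66.3% and 32.7% of shared, M1BP-alone and CP190-alone sites at gene ends. Requiring summits within 100 bp gave 674 M1BP-alone sites, 70.2%, 21 bp, 13.1 and -1.98, and 89.3%, 68.2% and 32.3%. Taking a peak in at least 1 list gave 509 M1BP-alone sites, 33 bp, a CP190 rank difference of 4.79, and 82.9% and 44.1% at gene ends for shared and M1BP-alone sites. Lists of equal length gave 1070 shared, 1710 M1BP-alone and 1861 CP190-alone sites, 35.4% shared, 35 bp, 12.9 and -4.94, and 81.8%, 81.5% and 27.5%. Ranking by −log10 q gave rank differences of 25.5 and 10.1. Windows of 100 bp gave 65.5%, 42.9% and 17.8% at gene ends, and of 500 bp 92.0% (shared) and 36.1% (CP190 alone). Placing shared sites by the M1BP summit alone, chosen after seeing the data, gave 87.6% at gene ends.

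Taking sites within each replicate number and averaging, the replicate block, gave 489.5 M1BP-alone sites, 36 bp, a CP190 rank difference of 5.70, and 84.3% (shared) and 30.9% (CP190 alone) at gene ends. The labels do not say that a number pairs the samples. Folds of replicate 1 over replicate 2 correlated at 0.554 (Pearson, log2) between M1BP and CP190 over the 2746 shared sites, a hint from the data with only 2 pairs.

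Leaving out 1 of the 4 libraries gave 2789 to 3115 shared, 345 to 480 M1BP-alone and 4637 to 5002 CP190-alone sites, 82.8 to 89.1% of M1BP sites shared, summit distances of 32 to 35 bp, rank differences of 19.6 to 25.9 (M1BP) and 2.07 to 6.66 (CP190), and 84.5 to 87.2%, 45.8 to 57.5% and 28.6 to 32.0% of shared, M1BP-alone and CP190-alone sites at gene ends. The library comparisons kept their direction under every alternative run, and none could pass the threshold of 0.05 in the exact permutation test. The search for motif words was not run.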
